A study of Homo sapiens with 2 samples.

Results

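The N-terminal acetyltransferase subunits are the 9 genes NAA10, NAA15, NAA16, NAA20, NAA25, NAA30, NAA35, NAA40 and NAA50, found by their symbol among the 57773 rows of the deposited table of all genes. NAA15 was chosen for its ratio between the libraries, and the other 8 because they encode subunits of the same enzyme family. The series compared 1 spheroid library of MDA-MB-231 cells labelled Control with 1 spheroid library that had received TGS24, a compound for which the labels give a code name alone. MDA-MB-231 is a human triple-negative breast cancer line, grown here with 10% serum. No label states the dose or the duration. The libraries held 8570604 reads for Control and 16145077 for TGS24 after irregular rows were left out. The signal recognition particle RNA RN7SL1 alone took 41.1% and 31.6% of these reads, and protein-coding genes 41.3% and 54.1%. With 1 library per group no p-value is given, and every statement compares these libraries, not the conditions.

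N-terminal acetyltransferases move an acetyl group from acetyl-CoA to the first residue of proteins while they leave the ribosome. NatA acts on small residues exposed once the initiator methionine is removed, with NAA10 as its catalytic subunit and NAA15, or its paralog NAA16, as the auxiliary subunit that holds it at the ribosome. NatB pairs the catalytic NAA20 with the auxiliary NAA25, and NatC pairs NAA30 with NAA35 and NAA38. NAA50, the NatE enzyme, docks on NAA15, and NAA40, the NatD enzyme, acts alone on histones H2A and H4.

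Before the values, the sequences of the auxiliary paralogs are shown, because reads of near-identical genes could be exchanged between them. The coding sequences of NAA15 (2598 bases) and NAA16 (2592 bases) in GENCODE v29 were identical at 69.6% of 2588 aligned bases, and the longest identical run was 23 bases, far under the read length of 150 bases. None of the coding 31-mers (runs of 31 bases) of either gene occurred in a transcript of another gene. Their first 90 coding bases are given 5′ to 3′ with the 22 mismatches in capitals.
NAA15: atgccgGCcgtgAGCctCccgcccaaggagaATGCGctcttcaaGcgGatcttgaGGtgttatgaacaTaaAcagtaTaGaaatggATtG
NAA16: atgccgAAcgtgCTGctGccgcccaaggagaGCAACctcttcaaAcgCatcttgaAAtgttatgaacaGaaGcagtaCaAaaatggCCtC
NAA10 was less separable. Of its 675 coding 31-mers, 356, or 52.7%, also stand in transcripts that GENCODE v29 assigns to the neighbouring gene ARHGAP4, so its count depends on how the annotation used by the authors split these exons. Over all annotated NAA10 exons the shared part was smaller, 481 of 4742 bases, or 10.1%. NAA50 shared 15 of its 477 coding 31-mers with another gene and NAA40 2 of 681, and none of those of NAA20, NAA25, NAA30 or NAA35 were shared.

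In NatA, the auxiliary subunit transcripts were higher in the TGS24 library and the catalytic one was not. NAA15 (ENSG00000164134, chromosome 4) had normalized read counts of 575 in Control and 2583 in TGS24, on 593 and 5105 reads. This is the value for which NAA15 was chosen. It corresponds to a 4.46-fold higher level, a log2 ratio of 2.16 (1.98 to 2.34), where parentheses after a log2 value hold its 95% interval for counting error only. By ratio it ranked 121 among 10080 genes with at least 20 reads over both libraries. The authors' deposited table calls NAA15 higher, with a log2 fold change of 2.17, above the mean plus 2 SD of 2.01 that stands at the end of the authors' deposited table of filtered genes. The authors' deposited table of calls holds 1.90% of the filtered genes as higher and 3.35% as lower, and none of the other 8 subunits.

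NAA16 (ENSG00000172766, chromosome 13), the less abundant paralog, had normalized counts of 58.1 in Control and 169 in TGS24, on 60 and 334 reads. It was 2.85-fold higher, with a log2 ratio of 1.51 (0.96 to 2.14). NAA10 (ENSG00000102030, X chromosome) had normalized counts of 374 and 236, on 386 and 467 reads. Its log2 ratio was -0.67 (-0.95 to -0.39), a 1.59-fold lower level that did not reach 2-fold. NAA50 (ENSG00000121579, chromosome 3) had normalized counts of 396 and 701, on 409 and 1385 reads, and a log2 ratio of 0.81 (0.58 to 1.04). The genes of the NatA and NatE assembly thus lay on both sides of 0, with NAA15 highest and NAA10 lowest of the 9. After the median of genes of like GC content was subtracted, NAA15 stood at 1.37 and NAA16 at 0.80, under the threshold. NAA10 then stood at -0.24 (-0.52 to 0.05) and NAA50 at 0.10 (-0.12 to 0.33), with intervals that held 0. On that scale NAA25, at -0.27, was lowest.

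**Figure D1:**
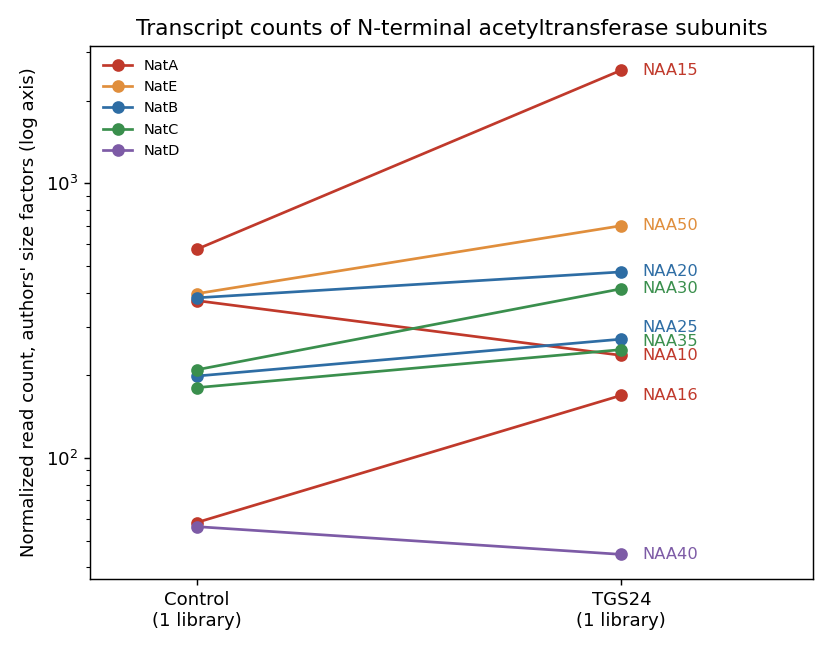
Normalized read counts of the 9 subunits, as deposited, in the Control and the TGS24 library on a log axis, with 1 line per gene coloured by complex. NAA15 goes from 575 to 2583 and NAA16 from 58.1 to 169, while NAA10 goes from 374 to 236.

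The NatB transcripts differed little between the libraries. NAA20 (ENSG00000173418, chromosome 20) had normalized counts of 383 and 476, on 395 and 940 reads, and a log2 ratio of 0.30 (0.06 to 0.55). NAA25 (ENSG00000111300, chromosome 12) had normalized counts of 199 and 271, on 205 and 535 reads, and a log2 ratio of 0.44 (0.10 to 0.78). Both were under the 2-fold threshold, and after the median of genes of like GC content was subtracted NAA25 turned to -0.27 (-0.61 to 0.07) while NAA20 stood at 0.51 (0.27 to 0.76).

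In NatC the catalytic subunit had the larger ratio. NAA30 (ENSG00000139977, chromosome 14) had normalized counts of 209 and 413, on 216 and 816 reads, and a log2 ratio of 0.97 (0.66 to 1.29). This lies just under the threshold, and with median-of-ratios scaling NAA30 stood at 1.10 and passed it. After the same subtraction as for NatB, NAA30 stood at 0.26 (-0.05 to 0.58), an interval that held 0. NAA35 (ENSG00000135040, chromosome 9) had normalized counts of 180 and 248, on 186 and 490 reads, and a log2 ratio of 0.45 (0.10 to 0.81), which turned to -0.14 (-0.49 to 0.22) after the same subtraction.

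NAA38, the small additional NatC subunit, cannot be read from the row that carries its symbol. That row, ENSG00000128534, is the gene LSM8 in the reference, which encodes an Sm-like protein of the U6 small nuclear ribonucleoprotein. It had 2 and 16 reads, and the authors' deposited table calls it higher with a log2 fold change of 2.06. On the scale used here its log2 ratio was 1.52 (-0.84 to 7.53), an interval that held 0. The row that the reference names NAA38, ENSG00000183011, is listed as LSMD1 and had 4 and 12 reads, with a log2 ratio of 0.50 (-1.84 to 3.98). In GENCODE v29, 39.8% of its exon bases lie in exons of CYB5D1 on the other strand. A difference in NAA38 was not detectable at these read counts.

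NAA40 (ENSG00000110583, chromosome 11), the histone-directed NatD enzyme, had normalized counts of 56.2 and 44.5, on 58 and 88 reads. Its log2 ratio was -0.34 (-1.05 to 0.38). At this depth a difference in NAA40 was not detectable.

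All 9 subunits passed the filter of 20 reads. Of them 2, NAA15 and NAA16, were at least 2-fold higher with an interval above 0, none was lower by that much, and the other 7 passed neither way. By the same rule 12.7% of all 10080 genes tested were higher and 6.44% lower. The median log2 ratio of the subunits was 0.45, and that of all genes tested was -0.004. Log2 ratios were above 0 for 7 of 9 subunits and for 5021 of the 10080 genes. After centring within GC classes, described with the GC content, they were above 0 for 5 of the 9. Since NAA15 was selected on this contrast, nothing is read from the count of 2.

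**Figure D2:**
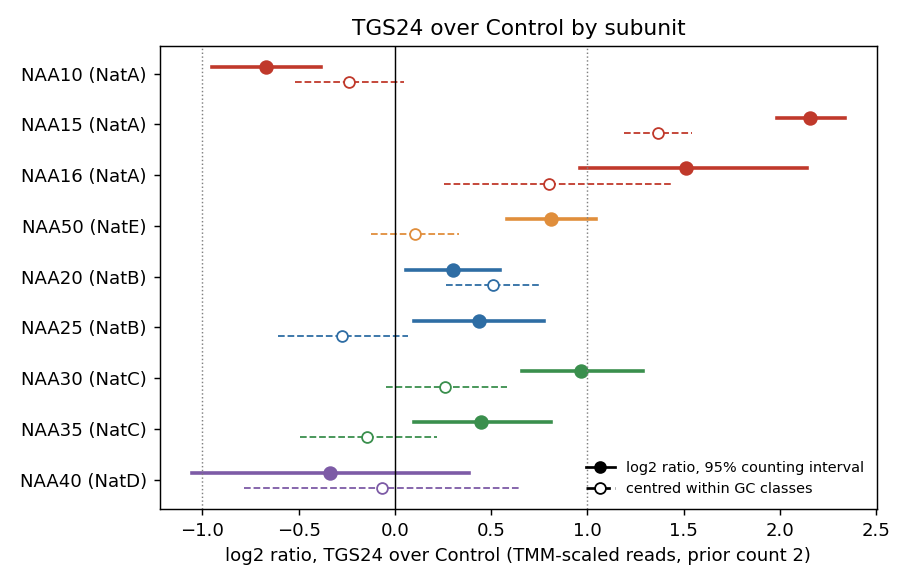
Log2 ratio of TGS24 over Control for each subunit (filled, with its 95% counting interval) and the same ratio after the median of genes with like transcript GC content was subtracted (open, dashed interval). Filled points for NAA15 and NAA16 lie right of the dotted 2-fold line at 1, and after centring only NAA15 does, at 1.37.

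The ratio between subunits within a library does not depend on how the libraries are scaled. NAA15 had 1.54 reads per NAA10 read in Control and 10.9 in TGS24, a log2 change of 2.83 (2.49 to 3.16). NAA16 had 0.155 reads per NAA10 read in Control and 0.715 in TGS24, a 4.60-fold change whose log2 interval ran from 1.55 to 2.87. NAA50 had 1.06 and 2.97 reads per NAA10 read, a log2 change of 1.48 (1.11 to 1.84). Against NAA10, each of these NatA-associated subunits therefore took a larger share in the TGS24 library, with the NAA15 value fixed in part by its selection. These ratios share the NAA10 reads, whose count is uncertain because of ARHGAP4. After centring within GC classes the NAA15 value was 1.60, the NAA16 value 1.04 and the NAA50 value 0.34.

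Between the paralogs no change in ratio was detectable. NAA15 had 9.88 reads per NAA16 read in Control and 15.3 in TGS24, a log2 change of 0.63 whose interval from -0.01 to 1.22 held 0. In NatB the auxiliary NAA25 had 0.519 and 0.569 reads per read of NAA20, a log2 change of 0.13 (-0.29 to 0.56), or -0.78 after GC centring. In NatC the auxiliary NAA35 had 0.861 and 0.600 reads per read of NAA30, a log2 change of -0.52 (-0.998 to -0.04). After GC centring the NatC change was -0.40. Before centring, no change in the NatB ratio was detectable, and in NatC the auxiliary subunit had fewer reads per catalytic one in TGS24. The centred changes were negative in both complexes, and no intervals were computed for them, so no contrast between NatB and NatC is read from these values. Differences between complexes were not tested.

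**Figure D3:**
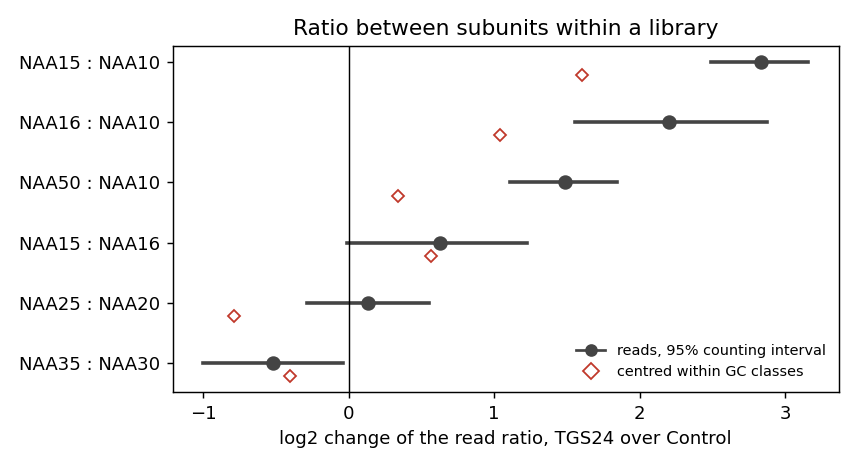
Log2 change, TGS24 over Control, of the read ratio between pairs of subunits (filled, with 95% counting intervals) and after centring within GC classes (open diamonds). The 3 ratios to NAA10 lie right of 0, NAA15 at 2.83 and NAA50 at 1.48 among them, and NAA35 to NAA30 lies left of it, at -0.52.

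Among the reads of all 9 subunits NAA15 took 23.6% in Control, with an exact binomial interval from 21.3% to 26.1%, and 50.2% in TGS24, from 48.9% to 51.6%. The NAA10 share was 15.4% in Control and 4.60% in TGS24. NAA15 was chosen for its ratio, so its larger share in TGS24 is set in part by that choice. A larger NAA15 share also leaves less for the other subunits together, NAA10 among them. Levels were compared between genes as TMM-scaled CPM per kilobase of the longest transcript. In Control the order on that scale was NAA20 at 29.2, NAA10 at 25.8, NAA15 at 11.3, NAA35 at 8.32, NAA50 at 7.89, NAA25 at 4.04, NAA30 at 3.35, NAA16 at 1.63 and NAA40 at 1.46. The counting intervals of NAA20 and NAA10 overlapped, as did those of NAA15 with NAA35, NAA35 with NAA50, NAA25 with NAA30 and NAA16 with NAA40.

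In TGS24 NAA15 stood first in level per kilobase, at 50.4, before NAA20 at 36.03 and NAA10 at 16.2. NAA50 at 13.9 and NAA35 at 11.4 followed, with intervals that overlapped each other, and the interval of NAA50 also overlapped that of NAA10. NAA30 at 6.56 overlapped NAA25 at 5.47, which overlapped NAA16 at 4.72, and NAA40 at 1.15 was lowest. The catalytic subunits of NatA and NatB thus led in the Control library, and the NatA auxiliary subunit led in the TGS24 library. The first place of NAA15 in TGS24 is set in part by its selection. With the summed length of all annotated exons in place of the longest transcript, NAA15 had rank 4 in Control and NAA10 rank 6 in TGS24, and NAA20 stayed first in Control and NAA15 in TGS24.

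The ratios of the subunits went with the GC content of their transcripts. NAA15 had a GC content of 37.7%, NAA16 39.2%, NAA50 39.0%, NAA30 39.1%, NAA25 39.5% and NAA35 41.1%, and all 6 had positive log2 ratios. NAA20 had 50.7%, NAA40 51.9% and NAA10 59.3%, and these had the 3 smallest ratios. Across the 9 subunits Spearman's rho between GC content and log2 ratio was -0.92 and Pearson's r was -0.83, given as a description of genes that share the same pair of libraries. Across 9960 tested genes with a transcript in the reference, which are not independent replicates, rho was -0.45. With transcript length, rho was 0.63 across the 9 subunits and 0.16 across all genes.

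Each ratio was therefore also set against its GC class, 1 of 20 classes of 498 genes. The class of NAA15 had a median log2 ratio of 0.79, and NAA15 stood at 1.37 above it with an interval from 1.19 to 1.54, with 15 genes of its class higher. NAA16 stood at 0.80 (0.25 to 1.43) above its class median of 0.71, and no longer passed the 2-fold threshold. NAA20 stood at 0.51, higher than 79.5% of its class. NAA30, NAA50, NAA40, NAA35, NAA10 and NAA25 stood between -0.27 and 0.26, with intervals that each held 0. After centring, 1 of 9 subunits was at least 2-fold higher, and none was lower, beside 5.39% of 9960 genes higher and 6.06% lower, and the subunit median was 0.10. How much of the uncentred ratios goes with GC content through the making of the libraries was not tested.

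**Figure D4:**
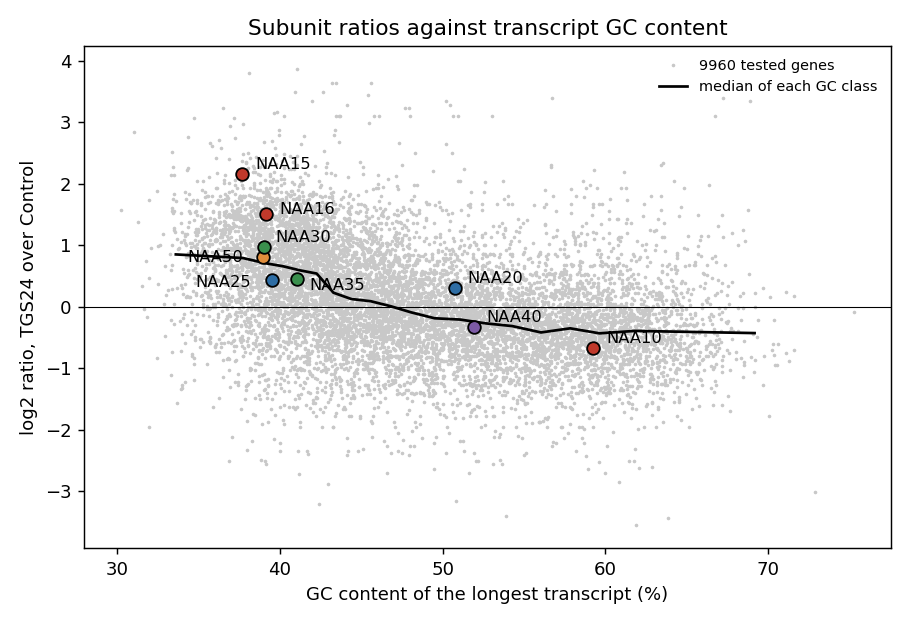
Log2 ratio of TGS24 over Control against the GC content of the longest transcript for 9960 tested genes (grey) and the 9 subunits (coloured by complex as in the plot of counts), with the median of each of 20 GC classes as a line. NAA15, at a GC content of 37.7%, lies well above the line, whereas NAA25, NAA35, NAA40, NAA50 and NAA10 lie near it.

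GC content differed between parts of a transcript. The NAA30 coding sequence had 58.7% GC and its whole transcript 39.1%, whereas the NAA15 coding sequence had 38.3% and its transcript 37.7%. For NAA20 the principal transcript had 46.7% GC, below the 50.7% of the longest one used for the classes.

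The windows upstream of NAA15 and NAA16 are shown because these paralogs were the pair past the threshold. They hold the 250 bases before the RefSeq start on GRCh38.p14, 5′ to 3′, and capitals mark matches to the motifs searched. The NAA15 window is chr4:139301255-139301504 on the plus strand and the NAA16 window chr13:41311017-41311266 on the plus strand.
NAA15: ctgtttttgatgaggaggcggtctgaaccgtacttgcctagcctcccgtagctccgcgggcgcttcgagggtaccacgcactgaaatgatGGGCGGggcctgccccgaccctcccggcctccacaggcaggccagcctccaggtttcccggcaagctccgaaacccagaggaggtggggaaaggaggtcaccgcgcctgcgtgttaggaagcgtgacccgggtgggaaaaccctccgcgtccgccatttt
NAA16: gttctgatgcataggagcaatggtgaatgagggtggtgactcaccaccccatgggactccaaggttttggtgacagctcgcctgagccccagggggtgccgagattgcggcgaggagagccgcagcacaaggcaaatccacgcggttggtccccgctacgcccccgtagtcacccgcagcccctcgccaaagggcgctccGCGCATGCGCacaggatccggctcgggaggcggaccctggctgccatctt
Of the 9 subunits 6 matched the promoter table, and NAA10, NAA25 and NAA30 did not. The SP1 motif GGGCGG was in the NAA15 window and in those of NAA35, NAA40 and NAA50, and 42.3% of 27305 windows of this length hold it. The palindromic NRF1 motif was in the windows of NAA16 and NAA40, and in 1.13% of all windows. The ETS motif CCGGAAG was in the NAA35 window alone of the 6, and in 8.82% of all. The YY1 motif AAGATGGCG, the CCAAT box, the E-box CACGTG and the CRE TGACGTCA were in none of the 6 windows, and in 0.641%, 33.0%, 6.49% and 1.77% of all. Both strands were searched. NAA15 and NAA16 shared no motif of this set in their windows, which had a GC content of 64.8% and 65.2%, against a median of 58.0% over all windows.

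The genes nearest to NAA15 by scaled level in both libraries were SMC3, PNN, XPO4, EPC2 and U2SURP, at Euclidean distances of 0.12 to 0.30 on the log2 scale among 10079 genes compared over 2 libraries. SMC3, the cohesin subunit, had 555 and 5362 reads, and PNN, the nuclear protein pinin, had 584 and 4612. The nuclear export receptor XPO4 had 652 and 4314 reads, the chromatin protein EPC2 653 and 4261, and the splicing-associated U2SURP 508 and 4428. Their log2 ratios ran from 1.76 to 2.32, and their transcript GC contents from 36.2% to 40.7%. Because they were picked for levels near NAA15 in both libraries, their ratios were bound to lie near its own. Among 449 genes within 1.25-fold of the NAA15 reads in Control, 106, or 23.6%, were at least 2-fold higher, and 2 had a larger ratio than NAA15. The place of NAA15 among them restates the ratio for which it was chosen.

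Other acetyltransferase genes of the family were close to the detection limit. NAA11, the NAA10 paralog, had 0 reads in Control, where a count of 0 allows up to 3 reads, and 6 in TGS24. NAA60, the Golgi-associated enzyme, had 1 and 0 reads in the first of 2 rows of that symbol, and 0 in both libraries in the second. HYPK, a small NatA-binding protein, had 2 and 0 reads, and 55.6% of its exon bases in GENCODE v29 lie in exons of other genes. NAA80, the actin acetyltransferase, listed as NAT6, had 12 and 10 reads and a log2 ratio of -1.03 (-3.26 to 0.77). It was the single one of these 5 genes, NAA38 included, with at least 20 reads, and it passed in neither direction.

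Removal of the initiator methionine precedes NatA action. METAP2, a methionine aminopeptidase, had 1822 and 6931 reads and a log2 ratio of 0.98 (0.88 to 1.09), under the threshold. It passed with median-of-ratios scaling, at 1.12, with no filter, at 1.14, and centred within length classes, at 1.07. It stood at 0.82 with the 100-read filter, at 0.32 centred within GC classes and at 0.37 centred within GC and length classes. METAP1, the other cytosolic one, had 909 and 1920 reads and a log2 ratio of 0.13 (-0.03 to 0.30). The N-myristoyltransferase NMT2, which acts on exposed N-terminal glycines, had 40 and 172 reads and was 2.19-fold higher, with a log2 ratio of 1.13 (0.44 to 1.94), and did not pass with the 100-read filter, at 0.97, or centred within GC and length classes, also at 0.97. Its paralog NMT1 had 5455 and 8451 reads and a log2 ratio of -0.31. Of the 6 measured genes of methionine removal and N-terminal marks, NMT2 alone was higher and none lower, beside 12.7% and 6.44% of all genes tested, with a median of 0.46. The N-terminal methyltransferase NTMT1 had 18 and 62 reads and a log2 ratio of 0.79 (-0.27 to 2.09), and it stood at 1.18 (0.12 to 2.49) after GC centring, where 2 of the 6, NMT2 and NTMT1, were higher, beside 5.39% of genes.

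Of 5 factors that bind near the ribosome exit site 2 were higher, beside 12.7% of all genes tested, and after GC centring 1 was, beside 5.39%. DNAJC2 and HSPA14 form the ribosome-associated chaperone complex. DNAJC2 had 215 and 1195 reads and was 2.87-fold higher, with a log2 ratio of 1.52 (1.23 to 1.83), or 1.29 after GC centring. In GENCODE v29, 9.57% of its exon bases lie in exons of PMPCB on the other strand. HSPA14 had 98 and 441 reads and a log2 ratio of 1.21 (0.78 to 1.70), or 0.98 after GC centring, under the threshold. A second gene entry of the same symbol holds 17.4% of its exon bases, so its count is uncertain. The subunits of the nascent polypeptide-associated complex, NACA and BTF3, had log2 ratios of 0.50 and 0.42, and BTF3L4, a BTF3 paralog, one of 0.51. The list median was 0.51.

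N-degron readers recognise acetylated or unmodified N-termini and mark proteins for degradation. The list held readers and related factors. Of 12 measured genes CUL2 alone was higher and none lower, beside 12.7% and 6.44% of all genes tested, with a median of 0.20. After GC centring none of the 12 passed. CUL2, a cullin that serves ligases reading glycine N-termini, had 190 and 1033 reads and a log2 ratio of 1.49 (1.18 to 1.83), or 0.83 after GC centring, under the threshold. The Ac/N-degron ligase gene MARCH6, listed under a date in place of its symbol, had 214 and 476 reads and a log2 ratio of 0.21 (-0.13 to 0.55).

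Genes that supply acetyl-CoA, the acetyl donor, had a median of -0.32, or -0.05 after GC centring. Of the 7 measured, 3 had log2 ratios above 0. The mitochondrial citrate carrier SLC25A1 had 125 and 112 reads and was 2.12-fold lower, with a log2 ratio of -1.09 (-1.66 to -0.57). It did not pass with median-of-ratios scaling, at -0.95, with no filter, at -0.93, or after centring within GC, length, or GC and length classes, at -0.66, -0.97 and -0.49. Its transcript had a GC content of 65.6%. None of the other 6 measured genes passed, so 1 of 7 was lower, beside 6.44% of all genes tested, and after GC centring none was. ACSS2, the nucleocytosolic acetyl-CoA synthetase, had a log2 ratio of -0.80, and ACLY, which makes acetyl-CoA from citrate, one of -0.32.

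**Figure D5:**
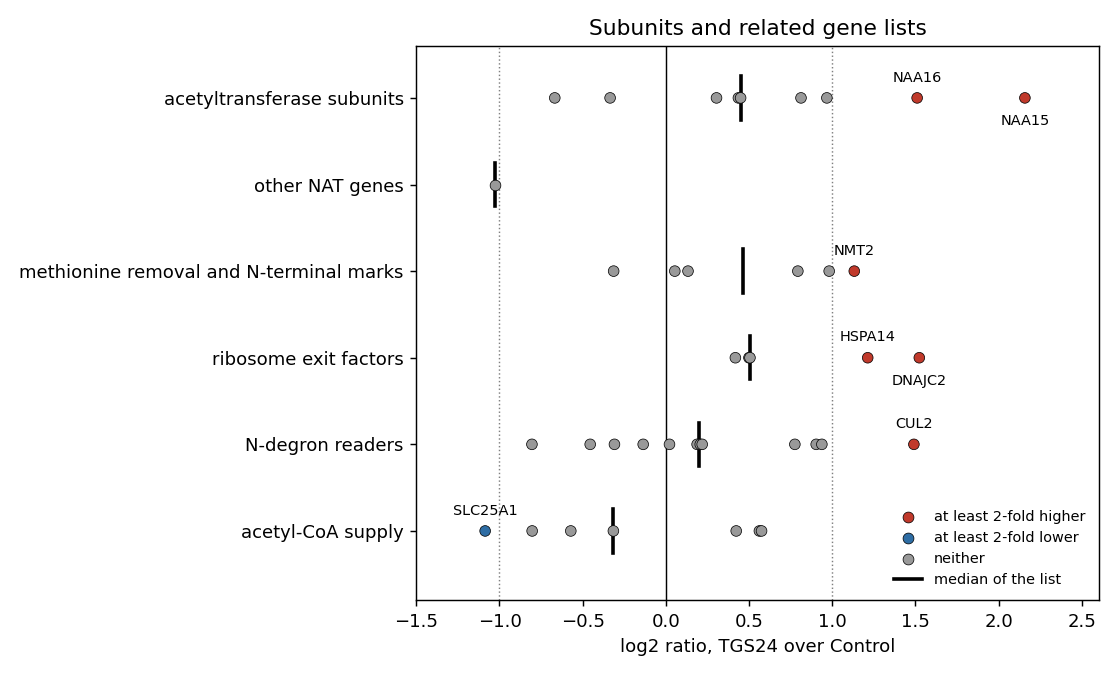
Log2 ratio of TGS24 over Control for the subunits and the measured genes of the 5 related lists (cell markers not drawn), with 1 point per gene, coloured by whether it was at least 2-fold higher or lower with an interval without 0, and the list median as a bar. The medians drawn run from -1.03 in the other acetyltransferase genes, with 1 measured gene, to 0.51 in the ribosome exit factors.

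Markers of the labelled cells differed between the libraries too. Of 10 genes that mark MDA-MB-231 cells 7 were measured, 5 of them at least 2-fold lower in TGS24 and none higher, beside 6.44% of all genes tested lower and 12.7% higher. Their median log2 ratio was -1.38 and their summed level 749 and 447 CPM. After GC centring 4 of the 7 were lower, beside 6.06% of genes, and MMP14 was not. VIM and CD44 of that list were left out because the deposited tables disagree on them, and so was the luminal marker GATA3. Luminal markers summed to 19.2 and 12.8 CPM, fibroblast markers to 13.03 and 11.3, leukocyte markers to 9.12 and 9.65 and endothelial markers to 2.61 and 2.09. KRT8 and LUM were at 0 in Control, and no listed marker was at 0 in both libraries. In these luminal, fibroblast, leukocyte and endothelial lists no measured gene passed in either direction, and after GC centring 1, the fibroblast marker COL1A2, was lower, at -1.32 (-2.63 to -0.22). Haemoglobin genes summed to 689 and 757 CPM, with a median log2 ratio of 0.15. The part of these differences in the subunit ratios was not tested, and fewer cells of a type and less RNA per cell cannot be told apart in such libraries.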

How the data were processed

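Total RNA of 1 Control and 1 TGS24 spheroid sample, extracted with Trizol, was sequenced in pairs of 150 bp, per the labels' protocols. The submitters' processing notes name hg19 as the build and featureCounts 1.5.2, STAR, Bowtie2 2.2.4, DESeq2 and Trimmomatic as tools, without their roles. For strand and multi-mapping settings, the sources used here give nothing. The signal the authors deposited is each gene's reads over a size factor, 1.03 in Control and 1.98 in TGS24. The steps of the values show this: 99.9% in each library were whole reads, to a relative tolerance of 1e-06. In the filtered and called tables the authors deposited a ratio (fold change) of TGS24 over Control and its log2 value. The filtered table ends in 9 summary lines that name no gene and entered no library total; only the authors' mean plus 2 SD is quoted from them.

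From the deposited values, whole reads were recovered, and 49 irregular rows (repeated, out of identifier order, not whole, or unlike in another table) were left out; no subunit was among them. Reads were scaled with TMM factors (edgeR 4.0.16, R 4.3.3), and log2 ratios used a prior count of 2. Most counts were even (75.3% and 73.5%), so 95% Clopper-Pearson intervals, conditional on the total, were computed on read pairs. They cover counting error only. Genes were called higher or lower at a log2 ratio of 1 or more in either direction with 0 outside the interval. The plan assumed read counts, and the recovered reads were used. Count tests with a replicate spread could not be fitted to 1 library per group. Intervals of ratios between subunits are exact conditional ones. GC content and lengths come from the longest transcript in GENCODE v29 (GRCh38), matched by Ensembl identifier, promoters from RefSeq (GRCh38.p14), and no gene coordinates are compared across builds. The scaling, the calls and the counting intervals were tested on simulated read pairs without a GC trend or a spread between samples. The GC centring, the ratios between subunits and the sequence steps were not tested in this way. Calculations used Python 3.11.15, numpy 2.4.6, scipy 1.17.1, pandas 2.3.3 and matplotlib 3.10.9, and DESeq2 1.42.0 gave median-of-ratios factors.

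The subunits and the gene lists were chosen with earlier results of these data known. Named genes are the 9 subunits, members of the related lists past the threshold or otherwise the 2 of largest ratio in a list, and the 5 genes nearest to NAA15. METAP1, METAP2, NMT1, NTMT1, NACA, BTF3, BTF3L4, MARCH6, ACSS2, ACLY, KRT8, LUM, MMP14, COL1A2, ATP6V1A, NDUFC1 and the other acetyltransferase genes are named beside the rule, chosen with their values in view.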

Additional observations from a re-analysis of the deposited data

How the results depend on the processing

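NAA15 stayed at least 2-fold higher under all 10 alternatives, with log2 ratios between 1.25 and 2.32, and no named gene reversed a call. The NAA15 values come from the same reads for which it was chosen, so they describe the dependence on settings only. Centred within GC classes NAA15 stood at 1.37, the subunit median at 0.10, 1 subunit was higher and 537 genes were higher over all. The NAA15 to NAA10 change was then 1.60 and the NAA25 to NAA20 change -0.78. Centring within length classes gave 1.98 for NAA15 and 0.60 for the median, and within GC and length classes 1.25 for NAA15, 0.072 for the median, 1 higher subunit and 534 higher genes. These length settings were chosen after seeing the data. The median was 0.59 with median-of-ratios factors, 0.61 with no filter and 0.29 with at least 100 reads, where 410 genes were lower. These last settings change the library scaling, and the subunit ratios move together with it. In the same order NAA15 stood at 2.30, 2.32 and 1.99, and NAA10 at -0.53, -0.51 and -0.83. Why the scaling factors differ and what underlies the shifts under centring were not tested. Median-of-ratios factors moved the median of all genes to 0.13, and the scaling without a filter to 0.16. The other subunits kept their side of the threshold in 76 of 80 alternative values. The exceptions were NAA16 after both GC centrings, at 0.80 and 0.90, and NAA30 with median-of-ratios factors, at 1.10, and with no filter, at 1.13. No paired analysis was possible because each group held 1 library. Low read counts limit NAA38, NAA11, NAA60, NAA80 and HYPK, and why these counts were low was not tested. With 1 library per group the spread between samples is unknown.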

Other observations

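Of the 9 subunit genes 2 have a protein-coding gene that starts within 1000 bases on the other strand in GENCODE v29. ATP6V1A, a subunit of the vacuolar proton pump, lies beside NAA50, with 138 reads in the Control library and 382 in the TGS24 library. Its log2 ratio was 0.52 (0.12 to 0.94), and that of NAA50 was 0.81. Neither passed the 2-fold threshold. NDUFC1, a subunit of respiratory complex I, lies beside NAA15 and is listed at 0 in both libraries, so no ratio can be set beside the 2.16 of NAA15.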
